A study of Homo sapiens with 10 samples.

Results

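The integrated stress response and the unfolded protein response were followed through 48 named genes, out of 19695 genes in the count tables, in T47D cells, an established human luminal breast cancer line. The 48 genes were chosen by symbol from the known pathways, with earlier results of these data known, and were all found in both tables. They fall into 13 transcription factors and feedback regulators around *ATF4*, 12 genes of amino acid synthesis, folate-linked carbon metabolism and transport, 7 aminoacyl-tRNA synthetases, 11 chaperones and folding factors of the endoplasmic reticulum (ER), and 5 genes of the ER stress sensor arm and of ER-associated degradation. The first 3 lists, 32 genes, are called the ATF4 branch here. RNA-seq was carried out 72 h after transfection of T47D cells with control siRNA, *TRPS1* siRNA or *CHD4* siRNA, with 2 libraries each. TRPS1 is an atypical GATA factor that represses transcription, and CHD4 is the ATPase of the NuRD chromatin remodeling complex. All cells were of the same line and had gone through transfection, and no untransfected library was analysed here. The labels name an siRNA against *CHD4* where the RNA-seq methods of the study name an shRNA, and which of the siRNA sequences against each target was used in a library is not stated.

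In the integrated stress response, kinases that sense amino acid shortage, ER stress, heme shortage or double-stranded RNA phosphorylate the translation factor eIF2, which lowers general translation while the *ATF4* mRNA is translated more. ATF4 then activates genes for amino acid supply and tRNA charging, the growth-arrest factor *DDIT3* (CHOP) and feedback regulators such as *TRIB3* and *PPP1R15A*. In the unfolded protein response, IRE1 (encoded by *ERN1*) splices the *XBP1* mRNA and ATF6 is cleaved at the Golgi, and these factors activate ER chaperones such as *HSPA5* (BiP). Much of this regulation is on translation, splicing and cleavage, which counts of reads per gene do not measure.

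The members differ in exact matches to response elements around their start sites. The C/EBP-ATF response element bound by ATF4 was searched as TGATGNAA on both strands, and the ER stress response element as CCAAT and CCACG separated by 9 bases, on both strands, in RefSeq promoter windows (GRCh38.p14) of 250 bases before to 50 bases after each start. Only exact matches were counted, and no window of a member held both. The *DDIT3* sequence printed below holds CCAAT and CCACT separated by 9 bases. This differs from the searched spelling in its last base and was not counted. Of the 48 members 43 had a window, 62 windows in all, and *NUPR1*, *PSPH*, *SHMT2*, *ALDH1L2* and *SLC7A11* had none. The C/EBP-ATF element was in 9 of the 43 windows of the ATF4 branch (20.9%), in 0 of the 13 chaperone windows, and in 3.62% of all 35116 promoter windows. An exact match to the ER stress response element was in 5 of the 13 chaperone windows (38.5%), in 0 of the ATF4 branch windows, and in 27 of all 35116 windows (0.0769%). Members with the C/EBP-ATF element were *ATF3*, *CEBPG*, *CHAC1*, *ASNS*, *SLC3A2*, *AARS*, *GARS*, *NARS*, *CARS* and *HERPUD1*, and those with the ER stress response element were *HSPA5*, *HSP90B1*, *CALR*, *PDIA6*, *CRELD2* and *XBP1*.

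Libraries held 10333138 to 14668358 counts, so that 3 counts, the floor used here for detection, equal 0.197 to 0.288 CPM (counts scaled to library size). All levels below are CPM with TMM scaling over the 6 libraries. Control replicate 1 stood apart, with counts for 14636 genes against 16779 to 17796 in the other 5 libraries, and log2 CPM correlations of 0.88 to 0.898 with them against 0.949 to 0.978 among them. Where leaving it out ends a call or moves a called value by over 1.5 times, the value without it is given. *CHD4* was at 300 and 286 CPM in the control libraries and at 95.8 and 54.3 CPM with *CHD4* siRNA (log2 fold change −1.96, SE 0.42, or −1.58 and above the p threshold without *CHD4* siRNA replicate 2). *TRPS1* was at 1445 and 2269 CPM in the controls and at 1166 and 722 CPM with *TRPS1* siRNA (log2 fold change −0.97, SE 0.39), so *TRPS1* mRNA was lower in both knockdown libraries but by 1.96-fold, under the 2-fold threshold. Of the luminal markers, *KRT8* was at 5196 and 3336 CPM in the controls and at 1075 to 1232 CPM in the 4 knockdown libraries, the 10 luminal markers summed to 10610 to 13570 CPM in the controls and 4654 to 6243 CPM in the knockdowns, and *TFF1* was at 0.28 to 3.02 CPM throughout. The 5 mesenchymal markers summed to 62.4 to 158 CPM, mostly *COL1A1*, with *VIM* at 17.3 CPM in *TRPS1* siRNA replicate 1 and 1.12 to 2.87 CPM elsewhere, and the leukocyte and endothelial markers *PTPRC* and *PECAM1* stayed at or under 0.241 CPM. The part of these markers in the results was not tested, and in bulk samples fewer cells and less RNA per cell cannot be told apart.

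Few members passed the study's threshold, a fold change over 2 with an unadjusted p under 0.05, in either knockdown. With *TRPS1* siRNA 2 of the 47 members tested rose, *DDIT3* and *HSP90B1* (4.26%, against 2.7% of all 12921 genes tested), and 2 fell, *WARS* and *XBP1* (4.26%, against 3.17%), so these shares were near the background. With *CHD4* siRNA 5 of 48 rose, *DDIT3*, *CHAC1*, *SLC7A11*, *HSPA5* and *HSP90B1* (10.4%, beside 2.6% of all 12918 genes), and 1 fell, *XBP1* (2.08%, against 2.85%). *CHAC1* entered that test only through the *CHD4* siRNA libraries in which it was high, so its call is no support and the 10.4% is a description. *SLC7A11* exceeded 2 CPM in only 1 control library, so it too needed the *CHD4* siRNA libraries to enter the test, and its call is no support either. The 2 comparisons share the control libraries, so a low or high value in a control moves both. The main fit kept genes over 2 CPM in 2 or more libraries and used no covariates. In its quasi-likelihood test (edgeR) no member and no other gene had an adjusted p under 0.05 (0.0% of all genes in each comparison). At an unadjusted p under 0.05 it had 902 genes with *TRPS1* siRNA and 769 with *CHD4* siRNA. At an adjusted p under 0.05 DESeq2 called 39 and 50 genes and the likelihood ratio test 34 and 58, none of them a member. Other edgeR settings also moved the adjusted result. Leaving off the low-count filter put 0 genes under 0.05 with *TRPS1* siRNA and 111 with *CHD4* siRNA, *DDIT3* and *SLC7A11* among them. A block for the replicate number put 32 and 44 genes under it, none of them a member.

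**Figure D1:**
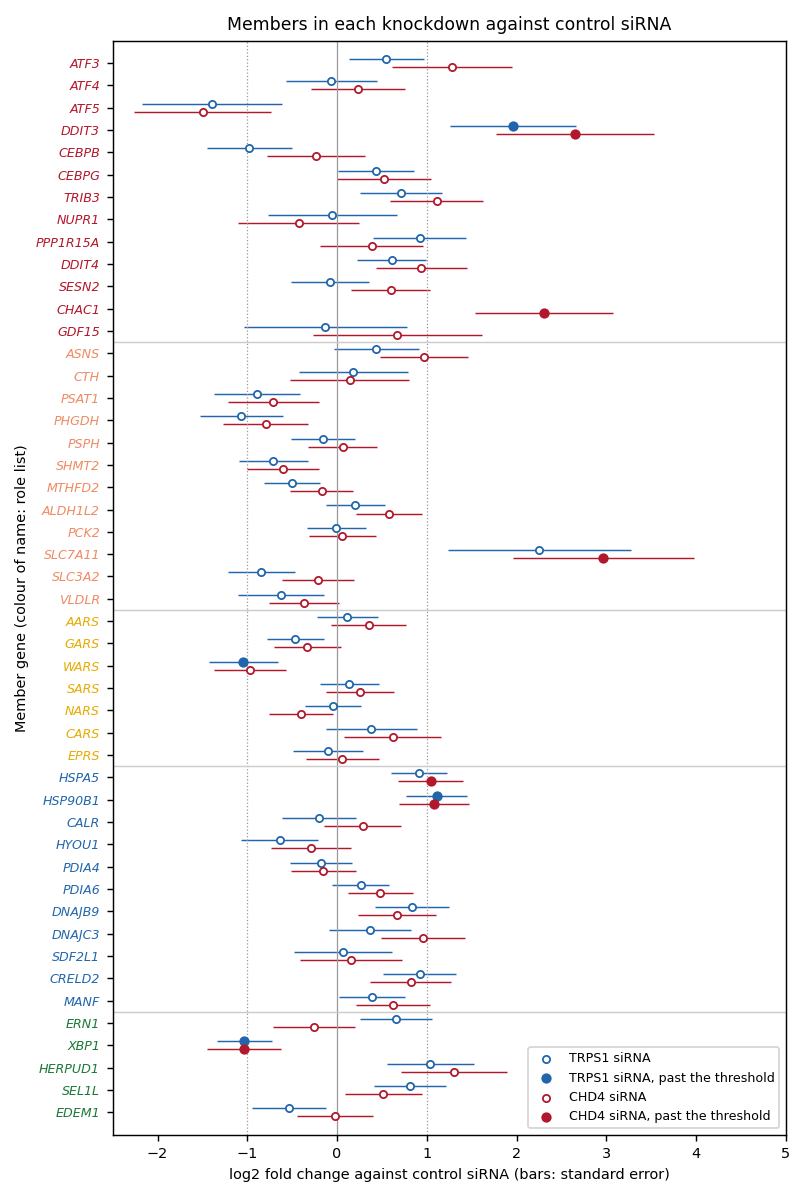
Log2 fold change of each of the 48 members in *TRPS1* siRNA (blue) and *CHD4* siRNA (red) against control siRNA, with standard errors as bars, 2 libraries a group and filled points past the threshold of a 2-fold change and an unadjusted p under 0.05. *DDIT3*, *SLC7A11* and *CHAC1* lie farthest to the right with the widest bars, *HSPA5* and *HSP90B1* lie near 1 with narrower bars and *XBP1* near −1 in both knockdowns; *CHAC1* has no blue point because it was not tested there.

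Among the regulators, *DDIT3* passed the threshold in both knockdowns. This factor, induced by ATF4, was at 10.8 and 16.2 CPM in the control libraries, at 85.0 and 20.2 CPM with *TRPS1* siRNA and at 151 and 18.4 CPM with *CHD4* siRNA. All 4 knockdown libraries were above both controls, but replicate 2 of each knockdown was close to control replicate 2 and replicate 1 carried the rise. The log2 fold change was 1.96 (SE 0.70) with *TRPS1* siRNA and 2.65 (SE 0.88) with *CHD4* siRNA, with adjusted p = 0.659 and adjusted p = 0.792 in edgeR, values that all other called members share. Without replicate 1 of the knockdown it was 0.60 and 0.47, which did not pass the threshold, and without replicate 2 it was 2.67 and 3.51. The *CHD4* siRNA value did not pass it without control replicate 1 (2.40) either, nor did the *TRPS1* siRNA value with all 6 libraries in 1 fit (1.96). *DDIT3* overlaps the gene *MARS1* in RefSeq and the counting is not stated to use strand, so their reads cannot be fully told apart; *MARS*, as the tables name it, was at 320 and 270 CPM in the controls and 171 to 312 CPM in the knockdowns.

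*CHAC1*, which encodes a glutathione-degrading enzyme, was the only regulator other than *DDIT3* past the threshold, and only with *CHD4* siRNA. It had 11 and 9 counts in the control libraries, 31 and 13 with *TRPS1* siRNA and 49 and 35 with *CHD4* siRNA, or 0.806, 0.679, 2.97, 0.853, 4.57 and 2.81 CPM. Both *CHD4* siRNA libraries were above the other 4 but for *TRPS1* siRNA replicate 1, which lay between them. The log2 fold change with *CHD4* siRNA was 2.30 (SE 0.77), and 2.44 and 2.18 without control replicate 1 and 2. The gene passed the filter of over 2 CPM in 2 libraries only through the *CHD4* siRNA libraries and was tested neither with *TRPS1* siRNA nor against the controls with a *CHD4* siRNA library left out.

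The *ATF4* mRNA itself overlapped between the groups. It was at 267 and 134 CPM in the controls, 259 and 123 CPM with *TRPS1* siRNA and 326 and 141 CPM with *CHD4* siRNA. In each of the 3 groups replicate 1 was about as far above replicate 2, by 0.99, 1.07 and 1.20 on the log2 scale, and the log2 fold changes were −0.06 (SE 0.51) and 0.23 (SE 0.52). *ATF3*, another stress-induced factor, was at 16.9 and 19.0 CPM in the controls, 33.3 and 19.2 CPM with *TRPS1* siRNA and 70.9 and 15.96 CPM with *CHD4* siRNA, and only replicate 1 of each knockdown stood out. *TRIB3*, a pseudokinase that feeds back on ATF4, was at 36.9 and 33.3, 78.6 and 36.5, and 109 and 41.9 CPM, with a log2 fold change of 1.11 (SE 0.52) with *CHD4* siRNA.

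Other feedback genes followed the same libraries or none. *DDIT4*, an inhibitor of mTORC1, was at 32.0 and 41.0 CPM in the controls, 66.3 and 44.9 CPM with *TRPS1* siRNA and 98.6 and 40.8 CPM with *CHD4* siRNA. *PPP1R15A* (GADD34), which directs the dephosphorylation of eIF2, was at 30.2 and 14.9, 56.3 and 28.9, and 41.8 and 16.9 CPM, so that replicate 1 was the higher of the 2 in every group. *SESN2*, a leucine sensor upstream of mTORC1, was at 37.4 and 21.9, 33.2 and 23.0, and 50.4 and 38.9 CPM. None of these 3 passed the threshold in either knockdown.

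The regulators *ATF5*, *CEBPB* and *NUPR1* were highest in control replicate 1. *NUPR1* was at 73.7 CPM there and at 15.3 to 53.6 CPM in the other libraries. *ATF5*, a factor related to ATF4, was at 30.9 CPM in control replicate 1 and at 5.73 to 7.61 CPM in the other 5 libraries. Its log2 fold changes of −1.39 (SE 0.78) and −1.50 (SE 0.76) became 0.28 and 0.18 without that library. *GDF15*, a secreted stress hormone, was highest in *CHD4* siRNA replicate 1. It was at 5.94 and 1.13 CPM in the controls, 4.51 and 1.97 CPM with *TRPS1* siRNA and 8.68 and 2.57 CPM with *CHD4* siRNA. *CEBPB*, a partner of ATF4, was at 42.4 and 22.2, 20.0 and 12.9, and 38.1 and 16.6 CPM, and both *TRPS1* siRNA libraries lay below both controls without passing the threshold (log2 fold change −0.98, SE 0.47).

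**Figure D2:**
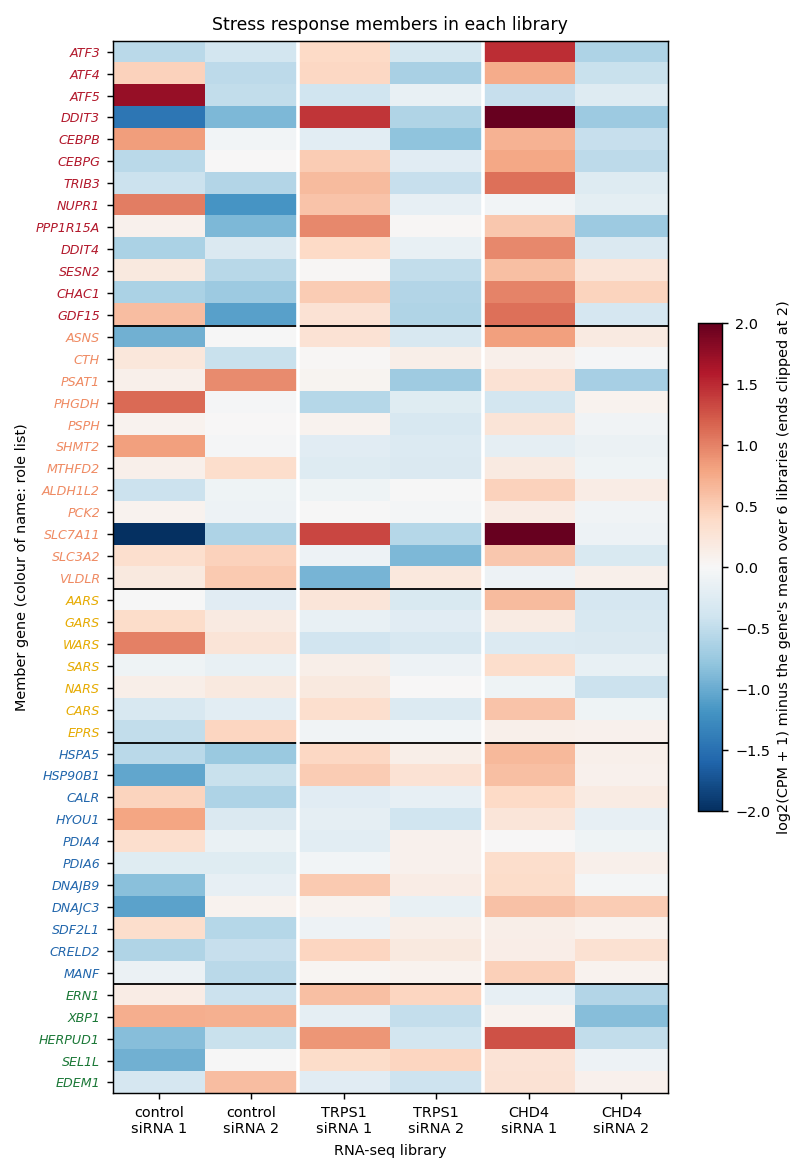
Each member's log2(CPM + 1) minus its own mean over the 6 libraries, red above and blue below that mean and clipped at 2, with the role lists separated by black lines and the groups by white lines. In the upper block the red cells gather in replicate 1 of *TRPS1* siRNA and *CHD4* siRNA, whereas the chaperone rows *HSPA5*, *HSP90B1*, *DNAJB9* and *CRELD2* are blue in both controls and lighter or red in all 4 knockdown libraries but *DNAJB9* in *CHD4* siRNA replicate 2, which is near its mean.

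Of the amino acid genes, only the cystine transporter *SLC7A11* passed the threshold. It had 9 and 47 counts in the controls, 172 and 56 with *TRPS1* siRNA and 294 and 68 with *CHD4* siRNA, or 0.659, 3.55, 16.5, 3.68, 27.4 and 5.46 CPM. The knockdown libraries were all above the controls, replicate 2 with *TRPS1* siRNA by little. With *CHD4* siRNA it rose by a log2 fold change of 2.97 (SE 1.01), and without *CHD4* siRNA replicate 1 the value was 1.40 and did not pass. It was 2.22 without control replicate 1, 4.62 without control replicate 2 and 3.73 without *CHD4* siRNA replicate 2. With *TRPS1* siRNA the value was 2.25 (SE 1.02) and did not pass. As control replicate 1 was under 2 CPM, *SLC7A11* met the filter of over 2 CPM in 2 libraries only with the help of knockdown libraries. *SLC3A2*, its heavy-chain partner, had no such pattern, with 401 and 436, 296 and 170, and 461 and 256 CPM.

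The enzymes of amino acid synthesis did not move together. *ASNS* (asparagine synthetase) was at 16.6 and 33.2 CPM in the controls, 41.0 and 26.3 CPM with *TRPS1* siRNA and 59.3 and 37.9 CPM with *CHD4* siRNA (log2 fold changes 0.44, SE 0.48, and 0.97, SE 0.49). The 3 serine synthesis genes did not pass the threshold. *PHGDH*, the first enzyme of that pathway, was at 221 and 98.4, 67.1 and 84.7, and 77.8 and 105 CPM, with a log2 fold change of −1.07 (SE 0.46) with *TRPS1* siRNA that was −0.37 without control replicate 1, and of −0.79 (SE 0.47) with *CHD4* siRNA that was −0.09 without it. *PSAT1*, the next enzyme, was at 31.1 and 57.0, 30.2 and 17.3, and 35.7 and 17.9 CPM, and *PSPH*, the last, at 46.96 and 44.8, 46.8 and 35.4, and 53.3 and 42.3 CPM, with log2 fold changes of −0.16 and 0.07. *VLDLR*, a lipoprotein receptor that ATF4 is known to induce, was at 39.9 and 50.6, 17.8 and 40.4, and 32.6 and 37.3 CPM, lowest in the *TRPS1* siRNA library where *DDIT3* was high. With *TRPS1* siRNA 5 of the 12 amino acid genes had both knockdown libraries below both controls and 1 had both above, beside 21.6% and 22.5% of all genes. Over the 12 genes the median log2 fold change was −0.33 with *TRPS1* siRNA and −0.06 with *CHD4* siRNA, beside −0.02 over all genes tested in each comparison.

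The tRNA synthetases, which charge tRNAs with amino acids and are direct ATF4 targets, showed 1 call. *WARS* (tryptophanyl-tRNA synthetase, which interferon-gamma also induces) was at 241 and 142 CPM in the controls, 90.4 and 95.0 CPM with *TRPS1* siRNA and 98.3 and 96.7 CPM with *CHD4* siRNA. All 4 knockdown libraries were below both controls. It fell with *TRPS1* siRNA by 1.04 on the log2 scale (SE 0.38), and with *CHD4* siRNA the log2 fold change was −0.97 (SE 0.40), under 2-fold. The *TRPS1* siRNA value was −0.61 without control replicate 1, −0.99 and −1.07 without *TRPS1* siRNA replicate 1 or 2, −0.91 with library sizes alone and −0.98 when each library had to exceed 2 CPM, and it passed the threshold in none of these. *AARS* (alanyl-tRNA synthetase) was at 348 and 299, 414 and 285, and 544 and 278 CPM, again with replicate 1 of each knockdown the highest. The other 5 synthetases had log2 fold changes between −0.46 (*GARS*, *TRPS1* siRNA) and 0.62 (*CARS*, *CHD4* siRNA). The list median was −0.05 with *TRPS1* siRNA and 0.06 with *CHD4* siRNA.

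**Figure D3:**
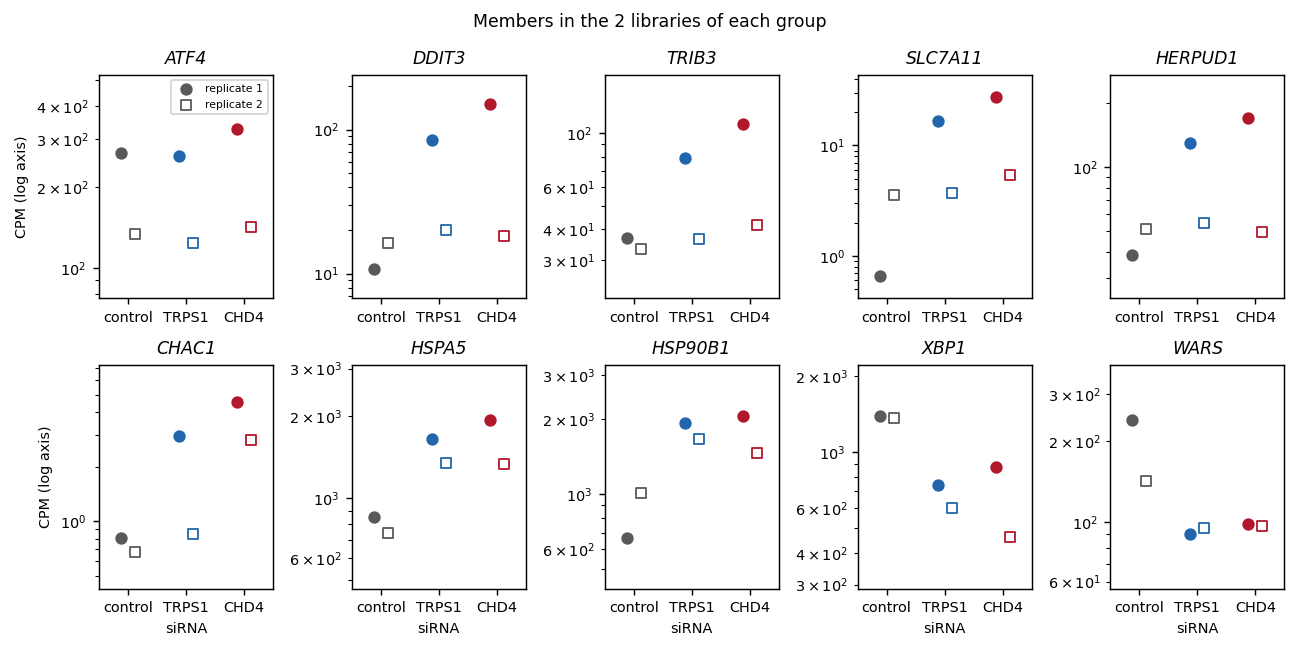
CPM on log axes of 10 members in control, *TRPS1* siRNA and *CHD4* siRNA libraries, with replicate 1 as filled circles and replicate 2 as open squares. For *DDIT3*, *TRIB3*, *SLC7A11* and *HERPUD1* the circles of both knockdowns are far above the squares, for *ATF4* this also holds in the controls, and for *HSPA5*, *HSP90B1*, *XBP1* and *WARS* all 4 knockdown points lie on 1 side of both control points.

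Of the ER chaperones, *HSP90B1* rose in both knockdowns and *HSPA5* with *CHD4* siRNA. *HSPA5*, the main ER chaperone and a repressor of the stress sensors, was at 853 and 743 CPM in the controls, 1647 and 1352 CPM with *TRPS1* siRNA and 1938 and 1336 CPM with *CHD4* siRNA. It rose with *CHD4* siRNA by a log2 fold change of 1.04 (SE 0.36). With *TRPS1* siRNA the value was 0.91 (SE 0.31), a 1.88-fold difference under the threshold. *HSP90B1*, the ER form of HSP90, was at 668 and 1006 CPM in the controls, 1937 and 1668 CPM with *TRPS1* siRNA and 2067 and 1459 CPM with *CHD4* siRNA. It rose in both, by 1.11 (SE 0.34) and 1.08 (SE 0.39) on the log2 scale. Without 1 library the *HSPA5* value with *CHD4* siRNA lay between 0.77 and 1.31, under 2-fold without control replicate 2 (0.95) and *CHD4* siRNA replicate 1 (0.77). The *HSP90B1* values lay between 0.83 and 1.44, under the threshold without control replicate 1 (0.85 and 0.83), without *TRPS1* siRNA replicate 1 (1.02) or 2 (1.23) and without *CHD4* siRNA replicate 1 (0.83).

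Other chaperones split by gene. *DNAJB9*, a cochaperone of BiP, was at 17.8 and 29.2 CPM in the controls, 47.5 and 36.4 CPM with *TRPS1* siRNA and 42.4 and 31.9 CPM with *CHD4* siRNA, above both controls in all 4 libraries (log2 fold changes 0.84, SE 0.41, and 0.67, SE 0.44). *CRELD2* and *MANF*, secreted ER stress proteins, and the disulfide isomerase *PDIA6* also had all 4 knockdown libraries above both controls, with log2 fold changes from 0.27 to 0.92. *CALR* (calreticulin, a lectin chaperone) was at 2070 and 993, 1299 and 1351, and 2001 and 1713 CPM, so that the controls were farther apart than the groups. *HYOU1* and *SDF2L1*, partners of BiP, were likewise highest in control replicate 1, with 793 CPM for *HYOU1* against 346 to 541 CPM elsewhere, and *SDF2L1* at 10.3 and 4.98 CPM in the controls, 7.29 and 8.66 CPM with *TRPS1* siRNA and 8.68 and 8.34 CPM with *CHD4* siRNA. Both libraries were above both controls for 6 of the 11 chaperones with *TRPS1* siRNA and for 7 with *CHD4* siRNA, and both below for 0, beside 22.5% and 19.8% of all genes above and 21.6% and 20.0% below.

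In the sensor arm, *XBP1*, the factor activated by IRE1 splicing, fell in both knockdowns. It was at 1385 and 1369 CPM in the controls, 740 and 603 CPM with *TRPS1* siRNA and 875 and 463 CPM with *CHD4* siRNA, with the controls nearly equal and all 4 knockdown libraries below them. The log2 fold changes were −1.03 (SE 0.31) and −1.03 (SE 0.41). They were under 2-fold with library sizes alone (−0.91 and −0.92) and when each library had to exceed 2 CPM (−0.98 and −0.99). The first did not pass without *TRPS1* siRNA replicate 1 (−1.17) or 2 (−0.88), nor the second without *CHD4* siRNA replicate 2 (−0.62). Spliced and unspliced *XBP1* mRNA are not separated in counts per gene. *XBP1* thus lay lower in the libraries in which *HSPA5* and *HSP90B1* lay higher.

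The other members of that arm did not pass the threshold. *ERN1* was at 20.7 and 13.7 CPM in the controls, 28.8 and 25.4 CPM with *TRPS1* siRNA and 16.5 and 12.1 CPM with *CHD4* siRNA, with the 2 knockdowns on either side of control replicate 1. *HERPUD1*, an ER membrane protein of degradation that is induced by both ATF4 and ER stress, was at 38.5 and 51.2, 130 and 54.3, and 171 and 49.7 CPM, with replicate 1 of each knockdown far above the other libraries (log2 fold changes 1.04, SE 0.49, and 1.31, SE 0.59). *SEL1L*, an adaptor of the degradation ligase, was at 250 and 486 CPM in the controls and 453 to 657 CPM in the knockdowns.

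The ATF4 branch and the chaperones were set side by side through the level of each list. The level of a list was taken as the mean over its genes of log2(CPM + 1) after subtracting each gene's mean over the 6 libraries. For the 11 chaperones the levels were −0.23 and −0.37 in the controls, 0.11 and 0.04 with *TRPS1* siRNA and 0.36 and 0.10 with *CHD4* siRNA, so the knockdown libraries did not overlap the controls. For the 13 regulators they were 0.06 and −0.59 in the controls, 0.43 and −0.40 with *TRPS1* siRNA and 0.83 and −0.32 with *CHD4* siRNA, so in each group replicate 1 was above replicate 2 and the groups overlapped. For the amino acid genes the levels were −0.0355 and 0.0833 in the controls, −0.0358 and −0.28 with *TRPS1* siRNA and 0.35 and −0.08 with *CHD4* siRNA, and for the synthetases they were 0.0822 and 0.0689, 0.0408 and −0.18, and 0.21 and −0.22. For both lists the *TRPS1* siRNA libraries lay below both controls, barely so for the amino acid genes, and the *CHD4* siRNA libraries overlapped the controls. The median log2 fold change over the chaperones was 0.37 with *TRPS1* siRNA and 0.62 with *CHD4* siRNA, beside −0.05 and 0.19 over the tested genes of the ATF4 branch and −0.02 over all genes in each comparison.

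Over all 48 members, both libraries were above both controls for 13 of 47 with *TRPS1* siRNA (27.7%, against 22.5% of all genes tested) and for 15 of 48 with *CHD4* siRNA (31.2%, against 19.8%). Both were below for 9 (19.1%, against 21.6%) and 6 (12.5%, against 20.0%). The *TRPS1* siRNA shares were near the background in each direction. The 15 include *CHAC1* and *SLC7A11* and the 13 include *SLC7A11*. These genes met the filter only with knockdown libraries in which they were high, so the shares above are a description and no support.

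**Figure D4:**
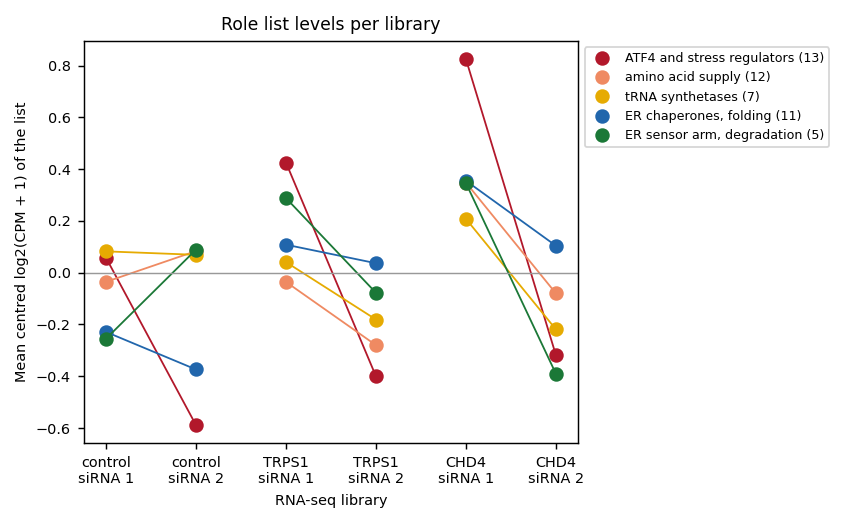
Level of each role list in the 6 libraries, as the mean of log2(CPM + 1) centred on each gene's mean, with a line between the 2 libraries of a group. The chaperones (blue) are below 0 in both controls and above 0 in all 4 knockdown libraries, while the regulators (dark red) run from 0.06 to −0.59 in the controls and from 0.83 to −0.32 with *CHD4* siRNA.

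The 2 libraries of a knockdown differed most often among the regulators, of which 4 of 13 with *TRPS1* siRNA and 9 of 13 with *CHD4* siRNA were over 2-fold higher in replicate 1. In the controls 3 of 13 were. The median log2 difference of the regulators was 0.749 in the controls, 0.761 with *TRPS1* siRNA and 1.25 with *CHD4* siRNA. Over all members, 6 of 48 were over 2-fold higher in replicate 1 of the controls (12.5%, against 14.0% of all 13143 genes tested). In *TRPS1* siRNA 6 were as well (12.5%, against 0.852%). In *CHD4* siRNA 11 were (22.9%, against 1.17%), and 5 were in both knockdowns (10.4%, against 0.312%). The 5 were *ATF4*, *DDIT3*, *TRIB3*, *SLC7A11* and *HERPUD1*, with log2 differences on CPM + 1 of 1.07, 2.02, 1.09, 1.90 and 1.25 in *TRPS1* siRNA and 1.20, 2.97, 1.36, 2.14 and 1.76 in *CHD4* siRNA. In the control libraries the same genes differed by 0.99, −0.55, 0.15, −1.45 and −0.40, so only *ATF4* was higher in replicate 1 there by a like amount. Of the amino acid genes 1 of 12 was over 2-fold higher in replicate 1 in each knockdown, and of the 7 synthetases and the 11 chaperones 0 were. Each value sets 1 library against 1 other and has no error of its own.

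Other measures moved with these libraries. Of 11 heat shock genes, which respond to misfolded proteins of the cytosol, 3 were over 2-fold higher in replicate 1 of both knockdowns, *HSPA1A*, *HSPA1B* and *DNAJB1*, and 3 (*HSPA1A*, *HSPB1* and *BAG3*) were so in the controls, and the list medians of the log2 difference were 0.18 and 0.0169 in the knockdowns and 0.27 in the controls. Picked after their values were seen, *HSPA1A* and *DNAJB1* were at 25.2 and 130 CPM in *TRPS1* siRNA replicate 1 against 6.96 and 60.8 CPM in replicate 2, and at 51.6 and 282 CPM against 7.06 and 64.3 CPM in the *CHD4* siRNA libraries. *HSPA1A* shares near-identical sequence with *HSPA1B*, so its counts are uncertain. Replicate 1 of each knockdown also had the lowest totals (10333138 and 10754802 counts, against 14515392 and 11640282 in replicate 2) and a larger share of counts in its 10 most counted genes (12.7% and 12.4%, against 9.42% and 8.67%). The part of these in the differences between replicates was not tested.

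**Figure D5:**
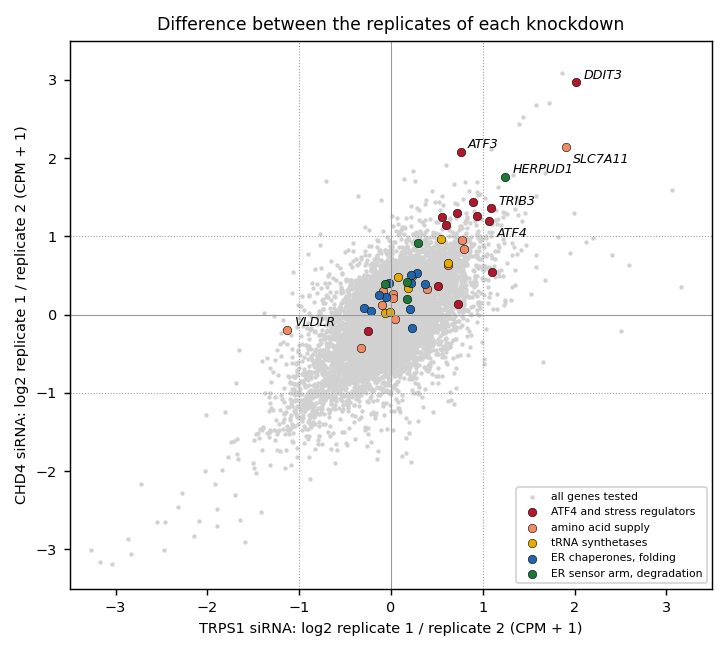
Log2 ratio of replicate 1 to replicate 2 (CPM + 1) within *TRPS1* siRNA (x axis) and within *CHD4* siRNA (y axis) for all genes tested (grey) and the 48 members coloured by role list, with dotted lines at 2-fold. *DDIT3* lies at 2.02 and 2.97 and *SLC7A11* at 1.90 and 2.14, and the chaperones (blue) stay within the dotted lines.

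The direct comparison of the knockdowns, which uses no control library, called no member. Of the 48 members 0 rose (against 2.12% of all 13143 genes) and 0 fell (against 1.56%) at the study's threshold. In the main fit 0.0% of all genes had an adjusted p under 0.05 in edgeR's quasi-likelihood test. An unadjusted p under 0.05 was found there for 5 members (10.4%, against 15.4% of all genes, or 2023 genes). At an adjusted p under 0.05 DESeq2 called 456 genes, none a member, and the likelihood ratio test 570, with *ERN1* among them. In edgeR 424 genes were under it without the low-count filter, none a member. A block for the replicate number put 3372 genes under it, with 18 members among them. The libraries of *CHD4* siRNA were both above those of *TRPS1* siRNA for 11 members (22.9%, against 22.8%) and both below for 3 (6.25%, against 24.1%). *DDIT3* differed by 0.71 (SE 1.02) on the log2 scale, *SLC7A11* by 0.74 (SE 0.91), *HSPA5* by 0.14 (SE 0.25), *HSP90B1* by −0.02 (SE 0.24) and *XBP1* by 0.00 (SE 0.32). As each library was left out, the value ran from −1.51 to 2.07 for *DDIT3* and from −0.86 to 2.16 for *SLC7A11*.

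TRPS1 ChIP-seq in T47D cells placed peaks at the start of 2 of the 43 members with a known start. The authors deposited 1 list of 1844 peaks for 2 TRPS1 and 2 input libraries, with no replicate error, on hg38, and distances were measured to RefSeq starts of GRCh38. A peak at chr12:57520277-57520715 covers the start of *DDIT3*, and a peak at chr19:48872324-48872579 covers the start of *PPP1R15A*. Below, the 250 bases before these starts are given (chr12:57520518-57520767, minus strand, and chr19:48872171-48872420, plus strand), with the 198 and 97 bases inside the peak in capitals. The letters AGATAA are 1 spelling of the GATA consensus WGATAR (W for A or T, R for A or G). This spelling is on neither strand of these 2 windows. Other spellings of WGATAR were not searched, and each of the 2 peaks extends past its window. Whether these peaks hold a GATA site was therefore not tested. AGATAA is in 1 of the 62 member windows, that of *HSPA5*, and in 10.3% of all promoter windows.
DDIT3: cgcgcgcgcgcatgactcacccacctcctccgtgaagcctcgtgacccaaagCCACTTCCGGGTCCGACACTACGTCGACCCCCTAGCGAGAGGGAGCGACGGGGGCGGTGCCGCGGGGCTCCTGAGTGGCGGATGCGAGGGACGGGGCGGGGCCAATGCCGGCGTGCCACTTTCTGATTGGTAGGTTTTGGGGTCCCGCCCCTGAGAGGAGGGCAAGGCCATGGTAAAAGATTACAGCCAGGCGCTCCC
PPP1R15A: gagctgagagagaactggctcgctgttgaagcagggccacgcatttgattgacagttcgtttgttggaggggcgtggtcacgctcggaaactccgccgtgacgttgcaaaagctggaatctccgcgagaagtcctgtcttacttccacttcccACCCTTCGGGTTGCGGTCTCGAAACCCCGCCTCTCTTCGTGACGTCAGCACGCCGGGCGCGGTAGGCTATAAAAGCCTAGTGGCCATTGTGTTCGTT

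Within 50 kb of a start, 12 of the 43 members with a known start had a peak (27.9%), beside 13.6% of the 10445 tested genes with one. Within the gene or 5 kb of it, 5 of 48 members had one (10.4%), beside 7.99% of 13041 genes, nearer to each other than at 50 kb. Besides *DDIT3* and *PPP1R15A* these 5 were *ATF3*, with a peak inside the gene at chr1:212608315-212608629, *PSPH*, with a peak across one end of the gene at chr7:56051252-56051545, and *WARS*, with a peak 1.44 kb from its start at chr14:100377763-100378024. *PSPH* is not among the members with a known start, so whether that end is its start was not determined. The peak nearest to *XBP1* lay 8.1 kb from its start. The 2 chaperones with a peak within 50 kb were *PDIA4* (37.4 kb) and *HYOU1* (45.0 kb), and *HSPA5* and *HSP90B1* had none. Of the 5 members within 5 kb, *DDIT3* rose and *WARS* fell with *TRPS1* siRNA, and *ATF3*, *PSPH* and *PPP1R15A* did not pass the threshold.

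Other genes of these pathways were counted from lists kept apart from the members. Of 26 tested ATF4 targets outside the 48, with *TRPS1* siRNA 0 rose and 2 fell, and with *CHD4* siRNA 1 rose and 3 fell. The shares called were 0.0% and 7.69%, beside 2.7% and 3.17% of all genes, and 3.85% and 11.5%, beside 2.6% and 2.85%. In the short lists below 1 call is a share of 3.57% to 14.3%, so single calls there are read as values only. *SLC7A5*, the leucine transporter that pairs with SLC3A2, was at 2786 and 1177 CPM in the controls, 340 and 442 CPM with *TRPS1* siRNA and 641 and 792 CPM with *CHD4* siRNA, below both controls in all 4 knockdown libraries. It fell by 2.34 (SE 0.49) and 1.46 (SE 0.47) on the log2 scale, the first value being −1.58 without control replicate 1 and the second −0.70 without control replicate 1 and −1.29 without *CHD4* siRNA replicate 1, neither past the threshold. *EIF4EBP1*, a translation repressor, was at 240 CPM in control replicate 1 and 40.4 to 53.4 CPM elsewhere, and its log2 fold changes of −1.69 and −1.67 became −0.23 and −0.21 without that library and −2.40 and −2.38 without control replicate 2. They also did not pass without *TRPS1* siRNA replicate 1 (−1.52), without either *CHD4* siRNA library (−1.63 and −1.67) or, with *TRPS1* siRNA, with library sizes alone (−1.55). With *CHD4* siRNA *KLHL24*, an ubiquitin ligase adaptor, rose by a log2 fold change of 1.32 (SE 0.49) and the secreted glycoprotein gene *STC2* fell by 1.12 (SE 0.46), the values being 0.87 and −1.05 without control replicate 1, 0.98 for *KLHL24* without *CHD4* siRNA replicate 1 and −0.61 for *STC2* without *CHD4* siRNA replicate 2, none past the threshold. They were 2.00 for *KLHL24* without control replicate 2 and −1.81 for *STC2* without *CHD4* siRNA replicate 1. In the direct comparison *STC2* was lower with *CHD4* siRNA by a log2 value of −1.19 (SE 0.45), −0.74 without *TRPS1* siRNA replicate 1 and −0.70 without *CHD4* siRNA replicate 2.

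Of the eIF2 kinases, eIF2 subunits and other upstream genes, 0 of 16 tested passed the threshold in either knockdown, and the same held for 7 further cytosolic and 16 mitochondrial synthetases. Of 28 further ER folding and degradation genes 1 rose with *TRPS1* siRNA, the ER oxidase *ERO1B*, by 1.23 (SE 0.45) on the log2 scale and not past the threshold without control replicate 1 (0.78) or without *TRPS1* siRNA replicate 1 (1.26) or 2 (1.22), the value being 1.88 without control replicate 2, and 0 passed with *CHD4* siRNA. Their median log2 fold changes were −0.04 and −0.07, beside 0.37 and 0.62 for the 11 chaperones. Among 7 genes of the mitochondrial stress response *HSPA9*, a mitochondrial HSP70, fell by 1.18 (SE 0.36) with *TRPS1* siRNA, at 169 and 109 CPM against 305 and 326 CPM in the controls and 331 and 340 CPM with *CHD4* siRNA, and was higher with *CHD4* siRNA than with *TRPS1* siRNA by 1.28 (SE 0.23). Without *TRPS1* siRNA replicate 1 or 2 the value against the controls was −1.51 or −0.89 and did not pass. Of 11 heat shock genes 1 fell in each knockdown, the small heat shock protein *HSPB1*, which was at 1097 CPM in control replicate 1 and 139 to 243 CPM elsewhere, and whose log2 fold changes of −1.75 and −2.08 became −0.29 and −0.60 without that library and −2.46 and −2.79 without control replicate 2. Of 8 NRF2 targets 1 fell with *TRPS1* siRNA, *OSGIN1*, by 1.33 (SE 0.46), not past the threshold without control replicate 1 (−0.85) or *TRPS1* siRNA replicate 1 (−1.68) or 2 (−1.02), and 0 passed with *CHD4* siRNA.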

How the data were processed

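RNA-seq of 6 libraries (T47D cells, 3 siRNA groups of 2) and 1 TRPS1 peak list were used, and samples were grouped by their labels. Nothing says that the 2 libraries of a group came from separate cultures, so p-values measure the spread between these libraries, which may be technical. According to the study's methods, RNA was depleted of rRNA, reads were aligned with STAR, and the authors counted them per gene with HTSeq 0.9.0 (hg38 per the labels); these counts were deposited without normalization, and the setting for strand is not given in the sources used here. The deposited peak list, called by the authors with BWA 0.7.12-r1039 and MACS2 2.1.1 from TRPS1 and input libraries, holds peak positions as other values, without a height, and whether replicates were pooled is not given in the sources used here. The tables list 0 mitochondrially encoded genes, so their share could not be computed.

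Each pair of groups was compared in edgeR 4.0.16 (R 4.3.3, quasi-likelihood F-test, TMM, no covariates, prior count 0.125) on genes that exceeded 2 CPM in 2 or more of the compared libraries, over all genes, with Benjamini-Hochberg adjustment. A standard error is the absolute log2 value over the root of its F statistic. Levels are CPM with TMM factors over all 6 libraries, and a pseudocount of 1 CPM was added where log2 CPM was used. Calls follow the study's threshold (fold change over 2, unadjusted p under 0.05). With 2 against 2 libraries an exact permutation test cannot go below p = 0.333 and was not used. The detection floor covers counting error only, whereas the standard errors come from the fit and include the spread between the libraries compared. In simulated counts in which 200 genes were moved by 2 on the log2 scale, at the observed dispersion, the threshold found 187 (*TRPS1* siRNA, 12921 genes, 515 unchanged genes called), 179 (*CHD4* siRNA, 12918 genes, 571 unchanged genes called) and 197 (direct comparison, 13143 genes, 95 unchanged genes called). At an adjusted p under 0.05 in the quasi-likelihood test 40, 76 and 185 of the 200 were found. Changes near 2-fold, such as those of *HSPA5*, *HSP90B1*, *XBP1* and *WARS*, were not simulated.

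The members and lists were chosen with earlier results of these data known. The 26 members named as leading genes in that choice, and any other past the threshold, are given with every library's value; genes of other lists are named where they passed it, and *HSPA1A*, *HSPA1B*, *DNAJB1* and *MARS* were named after their values were seen. Peaks were assigned within 50 kb of a RefSeq start (18912 of 19695 gene symbols matched). Alternatives were edgeR's likelihood ratio test, DESeq2 1.42.0, other low-count filters, library sizes alone, RLE size factors, all 6 libraries in 1 fit, a replicate block, leaving out each library, other peak distances and other motif spellings. Figures were drawn with matplotlib 3.10.9. Some promoter sequences are not reported here.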

Additional observations from a re-analysis of the deposited data

Results flagged for a closer look

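For 5 members the knockdowns differed from each other in the direct comparison with an unadjusted p under 0.05 in edgeR's quasi-likelihood test and with groups that did not overlap, each by less than 2-fold and none at an adjusted p under 0.05 in the main fit. With the replicate number as a block all 5 were under it, among 3372 genes. *ERN1* was also under it in the likelihood ratio test. *ERN1* (IRE1) was lower with *CHD4* siRNA by a log2 difference of −0.91 (SE 0.23, adjusted p = 0.167). *DNAJC3* (p58IPK), an ER cochaperone that inhibits the kinase PERK, was higher with *CHD4* siRNA by 0.60 (SE 0.15, adjusted p = 0.164), at 112 and 107 CPM against 78.0 and 67.2 CPM. *EDEM1*, which passes misfolded glycoproteins on to degradation, was higher by 0.52 (SE 0.15, adjusted p = 0.215), at 163 and 141 CPM against 114 and 101 CPM. *SESN2* was higher by 0.68 (SE 0.24, adjusted p = 0.270), and *CALR* by 0.49 (SE 0.19, adjusted p = 0.306). A share of 15.4% of all genes had a p under 0.05 in this comparison, more than the 10.4% among the members.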

How the results depend on the processing

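With 2 libraries a group, the calls depended on single libraries. Of the 10 calls of members against control siRNA, 10 held with the likelihood ratio test, DESeq2, RLE size factors and no filter, 9 with all 6 libraries in 1 fit, 7 with library sizes alone and 5 of the 8 testable when each library had to exceed 2 CPM, while 6 held without control replicate 1 and 0 of the 4 with *TRPS1* siRNA without its replicate 1 and 1 of the 5 testable with *CHD4* siRNA without its replicate 1. Members higher with *TRPS1* siRNA numbered 4 with DESeq2, library sizes alone or no filter and 1 with all 6 libraries in 1 fit (0 to 9 as each library was left out), and members lower 0 with library sizes alone, 4 with no filter and 0 with the filter in every library (0 to 7). With *CHD4* siRNA 8 members were higher with DESeq2 or no filter (0 to 8), and 2 were lower with DESeq2 or no filter and 0 with library sizes alone or the filter in every library (0 to 5). In the direct comparison leaving out a library gave 0 to 6 members higher and 0 to 3 lower. Over all genes, no filter gave 635 higher and 724 lower with *TRPS1* siRNA, 730 and 673 with *CHD4* siRNA and 463 higher in the direct comparison, library sizes alone gave 253 and 222 lower in the knockdowns, the filter in every library 178 higher and 135 lower in the direct comparison, and all 6 libraries in 1 fit 127 lower there. Leaving out a library gave 32 to 2457 higher and 42 to 1847 lower with *TRPS1* siRNA, 40 to 2255 and 51 to 1714 with *CHD4* siRNA, and 172 to 399 lower in the direct comparison. With all libraries kept, the fit without a filter was the only one run that gave members an adjusted p under 0.05 against controls (*DDIT3* and *SLC7A11*, *CHD4* siRNA). The chaperone median was 0.49 with *TRPS1* siRNA and library sizes alone, and ran from 0.27 to 0.53, 0.42 to 0.75 and 0.0102 to 0.36 in the 3 comparisons as libraries were left out, and the ATF4 branch median with *CHD4* siRNA from −0.25 to 0.37. Leaving out a library reversed *NUPR1* (−0.78 to 1.48 with *TRPS1* siRNA, −1.15 to 1.12 with *CHD4* siRNA), *GDF15* (−0.90 to 1.48 with *TRPS1* siRNA) and *DDIT3* in the direct comparison (−1.51 to 2.07); the cause was not tested.

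With the replicate number as a block, 741 genes were higher with *TRPS1* siRNA and 582 with *CHD4* siRNA, 9 of the 10 calls of members held, *WARS* with *TRPS1* siRNA falling under 2-fold (−0.99) so that 1 member was lower there (*XBP1*), and 1 was higher in the direct comparison (*CHAC1*), where 3372 genes and 18 members had an adjusted p under 0.05. The labels do not say that a number marks a shared batch, and deviations of same-numbered libraries correlated at 0.0884 and 0.0181 between the controls and the knockdowns and at 0.646 between the knockdowns, over 13269 genes. The totals of 10333138 to 14668358 counts limit the low members, *CHAC1* and *SLC7A11* with at most 11 counts in control replicate 1, more than the chaperones. No share of mitochondrially encoded genes could be computed.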
